A study of Mus musculus with 9 samples.

Results

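Antigen presentation by the major histocompatibility complex (MHC) was followed in mouse bone marrow-derived macrophages (BMDMs) through 7 genes, chosen by their Ensembl identifiers among the 53465 genes of the count table. They are the class II chains H2-Ab1, H2-Aa and H2-Eb1, the invariant chain Cd74, the class II transactivator Ciita, and the class I heavy chains H2-K1 and H2-D1. BMDMs were grown for 5 to 10 days from the marrow of male wild-type C57BL/6 mice (C57bl6/J in the study's methods) with CSF1 at 50 ng/ml. They were left untreated (UNX), treated with medium conditioned by pulmonary artery adventitial fibroblasts of control calves (CO-CM), or with medium of fibroblasts from calves in which hypobaric hypoxia had induced pulmonary hypertension (PH-CM). RNA-Seq was performed on 3 libraries per group, numbered 1 to 3 in the labels. The age of the mice was not given in the sources used here. Each conditioned medium was a pool from several fibroblast populations, so the replicates repeat the macrophage culture, not the calves. UNX was left untreated, and none of the 9 libraries was treated with fibroblast culture medium that had not been conditioned. The exposure is given as 16 h in one label and 24 h in another, the study's methods give yet another time, and which applies to these libraries is not known. The comparisons ask how each medium changes the presentation genes and whether the medium of diseased fibroblasts differs from that of control fibroblasts.

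Class I molecules are made by nearly all nucleated cells and present peptides from the cytosol to CD8 T cells. The heavy chain, such as H2-K1 or H2-D1, pairs with the light chain B2m and is loaded in the endoplasmic reticulum with peptides brought in by the transporter Tap1 and Tap2. Class II molecules are made mainly by professional antigen presenting cells. Their alpha and beta chains (H2-Aa with H2-Ab1, and the H2-E pair) assemble on the invariant chain Cd74, which is then cut away in endosomes so that H2-DM can exchange its last fragment for an antigenic peptide presented to CD4 T cells. Ciita is the master coactivator of class II genes. It binds no DNA itself but docks on RFX, CREB and NF-Y proteins at a conserved promoter module, and in macrophages it is classically induced by interferon gamma. C57BL/6 mice carry a deletion in H2-Ea and make no H2-E surface protein, although H2-Eb1 is transcribed.

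The promoter windows of 4 of the 7 genes are shown because they hold letters of motifs known from class II and class I promoters (RefSeq, GRCm38.p6, 250 bases before to 50 bases after the start of the gene, in the direction of the gene). In the class II windows, capitals mark GCAAC, the core of the RFX site, and CTGATTGG, which holds the NF-Y site. In the class I windows, capitals mark the NF-kB type site GGGATTCCC and the interferon response type site TTTCNNTTC. The windows are at chr17:34287774-34288073 on the minus strand (H2-Aa), chr17:34305617-34305916 on the plus strand (H2-Eb1), chr17:34000298-34000597 on the minus strand (H2-K1, the first of its 2 windows) and chr17:35262844-35263143 on the plus strand (H2-D1). RefSeq's start of H2-D1 lies inside the gene as GENCODE draws it, whose coordinates are given further on, and distances here are counted from the RefSeq start.
H2-Aa: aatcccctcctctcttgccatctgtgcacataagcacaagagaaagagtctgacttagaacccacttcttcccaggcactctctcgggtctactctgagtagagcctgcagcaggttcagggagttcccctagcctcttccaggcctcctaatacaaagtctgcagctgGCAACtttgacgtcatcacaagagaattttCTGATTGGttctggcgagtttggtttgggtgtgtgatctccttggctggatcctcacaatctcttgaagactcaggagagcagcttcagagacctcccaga
H2-Eb1: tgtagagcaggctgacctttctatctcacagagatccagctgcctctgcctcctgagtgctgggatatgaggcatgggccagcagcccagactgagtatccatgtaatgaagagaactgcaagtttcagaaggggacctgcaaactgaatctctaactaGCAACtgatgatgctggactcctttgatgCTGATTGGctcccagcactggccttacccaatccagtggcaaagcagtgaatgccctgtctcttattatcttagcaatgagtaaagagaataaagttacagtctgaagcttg
H2-K1: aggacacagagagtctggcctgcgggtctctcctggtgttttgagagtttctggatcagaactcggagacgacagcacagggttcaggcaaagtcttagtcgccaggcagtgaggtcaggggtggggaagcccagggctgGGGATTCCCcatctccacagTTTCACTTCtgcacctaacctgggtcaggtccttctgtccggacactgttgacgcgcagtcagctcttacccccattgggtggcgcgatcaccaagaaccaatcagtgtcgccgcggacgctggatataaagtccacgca
H2-D1: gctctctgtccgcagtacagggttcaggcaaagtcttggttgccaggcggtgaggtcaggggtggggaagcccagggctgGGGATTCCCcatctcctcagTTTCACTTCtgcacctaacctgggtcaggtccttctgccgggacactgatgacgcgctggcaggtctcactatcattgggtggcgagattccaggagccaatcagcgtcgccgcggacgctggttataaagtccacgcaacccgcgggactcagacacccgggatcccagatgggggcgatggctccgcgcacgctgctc

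Motifs were searched on both strands of all 32851 windows of 300 bases. GCAAC followed after 20 to 30 bases by CTGATTGG was in 22 windows (0.067%), which belong to 20 genes. Among these 20 genes were H2-Aa, with 25 bases between the elements, H2-Eb1, with 24, and the class II genes H2-Oa and H2-Eb2, while the windows of H2-DMa, H2-DMb1, H2-DMb2 and H2-Ob did not hold it. The elements began 81 and 51 bases upstream of the start in H2-Aa, and 91 and 62 bases upstream in H2-Eb1. Each short element alone was common: ATTGG was in 37.4% of windows and GCAAC in 35.2%. The CREB site TGACGTCA, present in 1.79% of windows, was in that of H2-Aa, between the marked elements, and not in that of H2-Eb1. GGGATTCCC was in 0.353% of windows and TTTCNNTTC in 7.52%, and H2-K1 and H2-D1 each held 1 of both, as did the windows of H2-Q6 and H2-Q7. The windows of H2-Q4, H2-T22, H2-T23, H2-M3 and B2m lacked GGGATTCCC, and TTTCNNTTC was also in those of Ctss, Cst3 and Sppl2a. The window of H2-D1 held GCAAC and ATTGG too, 2 times each, and that of H2-K1 held ATTGG 2 times. GGGATTCCC and TTTCNNTTC began 110 and 90 bases upstream in H2-K1, and 170 and 150 bases upstream in H2-D1. These matches describe letters in a window, not binding, and were not measured in these cells.

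The libraries held between 62017933 and 84314201 counted reads (median 68317274), and the 7 genes took between 0.181% and 0.356% of them. The labelled cell type was borne out by its markers: each of 9 macrophage markers passed the filter (CPM above 1 in at least 3 libraries, CPM being counts scaled to a common library size with TMM factors), and their summed CPM was between 11983 and 12780 in UNX, between 19283 and 20245 in CO-CM and between 21822 and 23668 in PH-CM. Lyz2 alone gave between 6854 and 7556 CPM of the UNX sums. The summed levels of the other marker lists were lower, although single genes were not always: the collagen gene Col1a1 was at 99.8 to 133 CPM in UNX beside 97.5 to 116 for the macrophage integrin Itgam. Of 10 dendritic cell markers 3 passed the filter (Itgax, Batf3 and Kit), and the list summed to between 12.2 and 39.4 CPM in UNX, between 22.5 and 67.6 in CO-CM and between 6.35 and 9.07 in PH-CM. The dendritic cell growth factor receptor Flt3 had 10, 10 and 8 reads per group in all. Of the 6 B cell markers only Ighm passed the filter, with list sums of 9.66 to 36.9, 10.9 to 14.4 and 6.60 to 10.8 CPM, and Pax5 had no read in UNX or PH-CM. Of the 5 T and NK cell markers only Cd4 passed and Ncr1 was at 0 throughout, with list sums of 1.39 to 3.31, 6.26 to 7.92 and 13.2 to 17.1 CPM. The fibroblast list, with 5 of 6 markers past the filter, summed to 194 to 245, 262 to 314 and 244 to 331 CPM. The neutrophil and progenitor list, with 1 of 6 past the filter (S100a8), summed to 2.12 to 3.02, 2.98 to 4.30 and 3.51 to 4.46 CPM, with Ly6g at 0 throughout.

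Per exon length, class I transcripts exceeded class II transcripts by far in every group. In UNX, H2-D1 (ENSMUSG00000073411, chr17:35262730-35267499, plus strand) had a median of 548 RPKM (reads scaled to exon length and library size, as deposited) and H2-K1 (ENSMUSG00000061232, chr17:33996017-34000347, minus strand) 214 RPKM. The invariant chain Cd74 (ENSMUSG00000024610, chromosome 18) followed at 9.32 RPKM. The class II chains came next, H2-Ab1 (ENSMUSG00000073421, chr17:34257689-34269419, plus strand) at 2.46 RPKM, H2-Eb1 (ENSMUSG00000060586, chr17:34305867-34316674, plus strand) at 2.23 and H2-Aa (ENSMUSG00000036594, chr17:34282744-34287823, minus strand) at 1.54. Ciita (ENSMUSG00000022504, chr16:10480059-10528418, plus strand) was last at 0.0451 RPKM. The order of medians was the same in CO-CM and PH-CM. Neighbours in this order had separate ranges in each group, except H2-Ab1 with H2-Eb1 and H2-Eb1 with H2-Aa, whose ranges overlapped in all 3 groups. H2-Eb1 overlaps Gm20513 and Ciita overlaps Dexi on the opposite strand, and no strand option was named for the counting, so reads in the overlaps cannot be told apart.

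**Figure D1:**
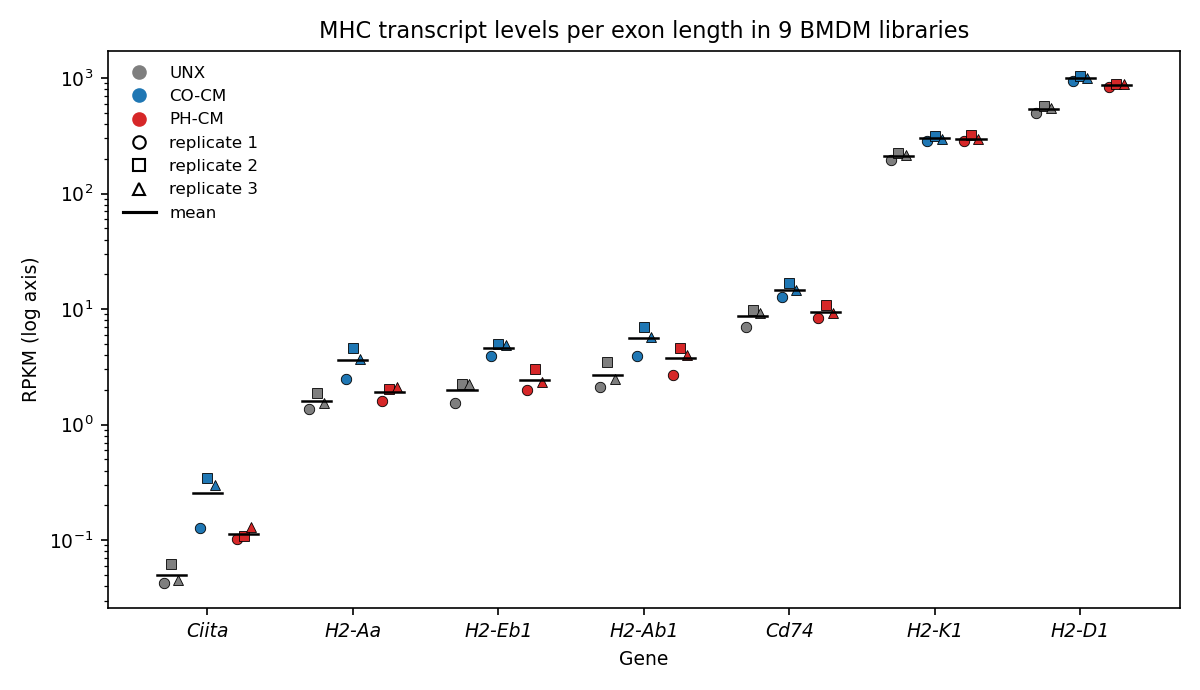
RPKM of each of the 7 genes (log axis) in each library, with group means as bars, colors for the groups and marker shapes for the replicate numbers. Class I chains lie between 196 and 1040 RPKM, Cd74 and the class II chains between 1.36 and 16.8, and Ciita up to 0.343. The group means of Cd74, the class II chains and Ciita are highest in CO-CM.

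Because class I heavy chains are a family of near-identical genes, the longest transcript of each gene was cut into all stretches of 150 bases, the length of a read, and compared with the transcripts of all other genes (GENCODE M21). None of the stretches of H2-K1 and 1.79% of those of H2-D1 occurred unchanged in another gene, in H2-Q1. No stretch of H2-Ab1, H2-Aa, H2-Eb1, Cd74 or Ciita was shared. Reads with mismatches could still be ambiguous, and reads that mapped to several places were not counted under the default of the counting tool.

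Under CO-CM the class II chains, Cd74 and the class I chains rose. Of the 6 genes that passed the filter (all but Ciita), 6 were called higher against UNX by edgeR's quasi-likelihood test (FDR, the Benjamini-Hochberg adjusted p, of at most 0.05 and fold change of at least 1.2), where 57% of the 11950 genes tested were called (28% higher and 28.9% lower). Since this background is high, single calls say little about the group, and the sizes are given for each gene. For these 6 genes no UNX library reached the lowest CO-CM library. The share of all genes tested that separate in this way was not counted, here or in the comparisons below.

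H2-Aa, the alpha chain of H2-A, was at 2.44, 3.42 and 2.84 CPM in UNX replicates 1 to 3, at 4.65, 9.01 and 7.17 CPM in CO-CM and at 2.96, 3.88 and 4.02 CPM in PH-CM. All CO-CM libraries were above all others, and PH-CM and UNX overlapped. The fitted log2 fold change was 1.26 ± 0.23 (SE, n = 3 per group) for CO-CM against UNX (edgeR FDR = 0.00066), 0.32 ± 0.24 for PH-CM against UNX (FDR = 0.245) and -0.94 ± 0.23 for PH-CM against CO-CM (FDR = 0.0087). H2-Ab1, the beta chain that pairs with it, was at 3.30, 5.57 and 3.96 CPM in UNX, at 6.44, 12.0 and 9.66 in CO-CM and at 4.39, 7.695 and 6.62 in PH-CM. CO-CM was above UNX in every library, while PH-CM overlapped both. Its log2 fold changes were 1.13 ± 0.27 (edgeR FDR = 0.0036), 0.54 ± 0.27 (FDR = 0.096) and -0.59 ± 0.27 (FDR = 0.109) in the same order. H2-Eb1, the beta chain of H2-E, was at 1.73, 2.58 and 2.63 CPM in UNX, at 4.68, 6.06 and 5.99 in CO-CM and at 2.35, 3.69 and 2.80 in PH-CM. Again every CO-CM library was the highest, and UNX and PH-CM overlapped. The log2 fold changes were 1.26 ± 0.20 (edgeR FDR = 0.00028), 0.34 ± 0.21 (FDR = 0.165) and -0.92 ± 0.20 (FDR = 0.0050).

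Cd74, which escorts class II chains to the endosome, followed the chains with a smaller change. It was at 9.40, 13.6 and 12.9 CPM in UNX, at 17.8, 24.5 and 21.0 in CO-CM and at 11.8, 15.7 and 13.4 in PH-CM. The CO-CM libraries stood above all others. The log2 fold change was 0.81 ± 0.16 for CO-CM against UNX (edgeR FDR = 0.00099), 0.18 ± 0.16 for PH-CM against UNX (FDR = 0.326) and -0.63 ± 0.16 for PH-CM against CO-CM (FDR = 0.0101). Reads on the 3 class II chains were between 73.1% and 85.0% of the reads on Cd74 in UNX, between 88.7% and 110.4% in CO-CM and between 82.5% and 100.6% in PH-CM. The log2 of this ratio was 0.37 higher in CO-CM than in UNX (two-sided exact permutation p = 0.1, adjusted over 3 pairs of groups 0.3), and with 3 libraries against 3 no exact p can be below 0.1.

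Ciita, the coactivator, had few reads and did not pass the filter, with 14, 24 and 20 reads in UNX, 46, 125 and 116 in CO-CM and 36, 36 and 44 in PH-CM. Since mates of a pair were counted separately, these stand for fewer fragments. In CPM the UNX libraries were at 0.216, 0.318 and 0.233, the CO-CM libraries at 0.673, 1.87 and 1.63 and the PH-CM libraries at 0.536, 0.580 and 0.696. Both media lay above UNX in every library, and CO-CM replicate 1 fell among the PH-CM libraries. The ratio of mean CPM was 5.44 for CO-CM against UNX (two-sided exact permutation p = 0.1, the smallest possible), 2.36 for PH-CM against UNX (p = 0.1, exact) and 0.434 for PH-CM against CO-CM (p = 0.2, exact). With the milder filterByExpr filter, which tests 15750 genes, edgeR gave log2 fold changes of 2.40 ± 0.38 (FDR = 0.00020), 1.19 ± 0.40 (FDR = 0.0205) and -1.21 ± 0.35 (FDR = 0.0219). Without CO-CM replicate 1 the log2 ratio of PH-CM to CO-CM was -1.54 in place of -1.20. Ciita reads were between 2.47% and 2.89% of the reads on the 3 chains in UNX, between 4.27% and 7.15% in CO-CM and between 3.797% and 5.52% in PH-CM.

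Under PH-CM the class II genes rose little, and not detectably in the main fit, which does not use the replicate number. The result depends on whether that number is used. Of the 6 genes tested, 2 were called against UNX, both of class I, where 63% of all genes tested were called (31.3% higher and 31.7% lower). With the replicate number as a block, 5 were called, H2-Ab1 (log2 fold change 0.54, edgeR FDR = 0.00027), H2-Aa (0.33, FDR = 0.039) and H2-Eb1 (0.34, FDR = 0.028) besides both class I genes. The block called 7714 of the 11950 genes tested. For Cd74 the blocked FDR was 0.018 at a log2 fold change of 0.19, below the fold threshold. Within each replicate number PH-CM was above UNX for all 4 class II genes. The log2 ratios were 0.41, 0.47 and 0.74 for H2-Ab1, 0.28, 0.18 and 0.50 for H2-Aa, 0.44, 0.51 and 0.09 for H2-Eb1, and 0.32, 0.20 and 0.05 for Cd74. Replicate 1 was the lowest library of its group in all 3 groups for each of the 7 genes. Without a block, H2-Ab1 was also called when UNX replicate 2 (FDR = 0.037) or PH-CM replicate 1 (FDR = 0.032) was left out of the edgeR fit.

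PH-CM and CO-CM compared directly differed in class II and much less in class I. H2-Aa, H2-Eb1 and Cd74 were called lower under PH-CM, 3 of the 6 genes tested, where 27.1% of all genes tested were called (12.2% higher and 15% lower). For each of these 3 genes no PH-CM library reached the lowest CO-CM library, and the share of all genes that separate so was not counted. H2-Ab1 was called with the replicate block (log2 fold change -0.58, edgeR FDR = 0.00030) and, without it, when CO-CM replicate 1 was left out (FDR = 0.030). Within replicate numbers its log2 ratios were -0.55, -0.64 and -0.55. Each pair of these comparisons shares the libraries of 1 group, so they are not independent.

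**Figure D2:**
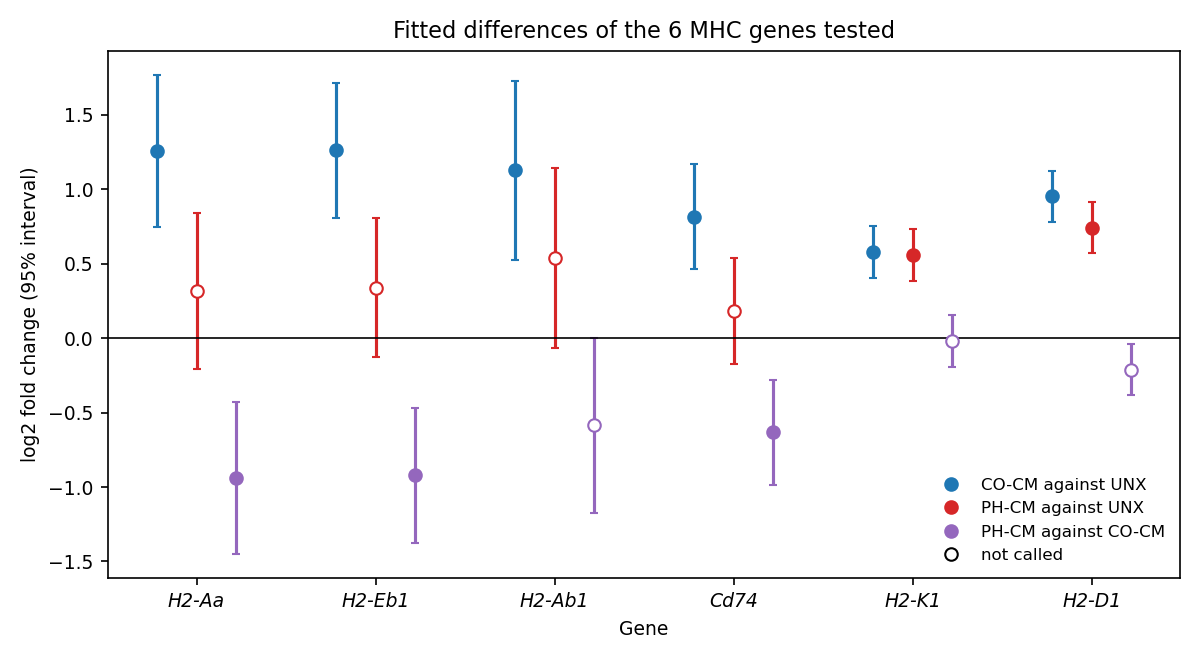
Fitted log2 fold changes with 95% intervals of the 6 genes tested, for CO-CM against UNX, PH-CM against UNX and PH-CM against CO-CM. Filled points are called (FDR of at most 0.05 and fold change of at least 1.2) and open points are not. In this fit, which does not use the replicate number, all 6 are called for CO-CM against UNX. Only H2-K1 and H2-D1 are called for PH-CM against UNX, and H2-Aa, H2-Eb1 and Cd74 for PH-CM against CO-CM. With the replicate block H2-Ab1, H2-Aa and H2-Eb1 are also called for PH-CM against UNX, and H2-Ab1 for PH-CM against CO-CM.

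The class I heavy chains rose under both media. H2-K1 was at 489, 577 and 547 CPM in UNX, at 748, 855 and 800.0 in CO-CM and at 734, 850.4 and 789 in PH-CM, with both media above every UNX library. Its log2 fold change was 0.58 ± 0.08 under CO-CM (edgeR FDR = 8.2e-05) and 0.56 ± 0.08 under PH-CM (FDR = 8.3e-05). Between the media it was -0.02 with a 95% interval of -0.19 to 0.16 (FDR = 0.881). H2-D1 was at 1223, 1445 and 1388 CPM in UNX, at 2423, 2781 and 2648 in CO-CM and at 2141, 2327.5 and 2313 in PH-CM. The 3 groups did not overlap. The log2 fold changes were 0.95 ± 0.08 (edgeR FDR = 1.9e-06) and 0.74 ± 0.08 (FDR = 8.4e-06) against UNX. Between PH-CM and CO-CM it was -0.21 (95% interval -0.38 to -0.04, FDR = 0.051), with an FDR of 0.00070 under the block but a fold change below 1.2. When CO-CM replicate 1 was left out it was called, at -0.26 (FDR = 0.024).

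Ratios within a library do not depend on the scaling between libraries. H2-D1 had 2.50, 2.51 and 2.54 reads per H2-K1 read in UNX, 3.24, 3.25 and 3.31 in CO-CM and 2.92, 2.74 and 2.93 in PH-CM. The 3 groups were separate and the spread within UNX and within CO-CM was narrow, with SDs of 0.01 and 0.02 on the log2 scale. The log2 ratio was 0.38 higher in CO-CM than in UNX, 0.19 higher in PH-CM than in UNX and 0.19 lower in PH-CM than in CO-CM, each with a two-sided exact permutation p of 0.1 (adjusted 0.1), the smallest possible. The reads on Cd74 and the class II chains were 0.985%, 1.24% and 1.15% of those on H2-K1 and H2-D1 in UNX, 1.06%, 1.42% and 1.27% in CO-CM and 0.746%, 0.974% and 0.864% in PH-CM. PH-CM lay below every other library, and UNX and CO-CM overlapped. The log2 ratio was 0.39 lower in PH-CM than in UNX (exact permutation p = 0.1, adjusted 0.15) and 0.53 lower than in CO-CM (p = 0.1, exact, adjusted 0.15), and it was 0.14 higher in CO-CM than in UNX (p = 0.4, exact). These tests do not use the replicate numbers, and within each of the 3 numbers CO-CM was above UNX. Counting only the chains, without Cd74, PH-CM and UNX overlapped, with a difference of -0.26 (exact permutation p = 0.2), and PH-CM was below UNX within each of the 3 numbers.

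**Figure D3:**
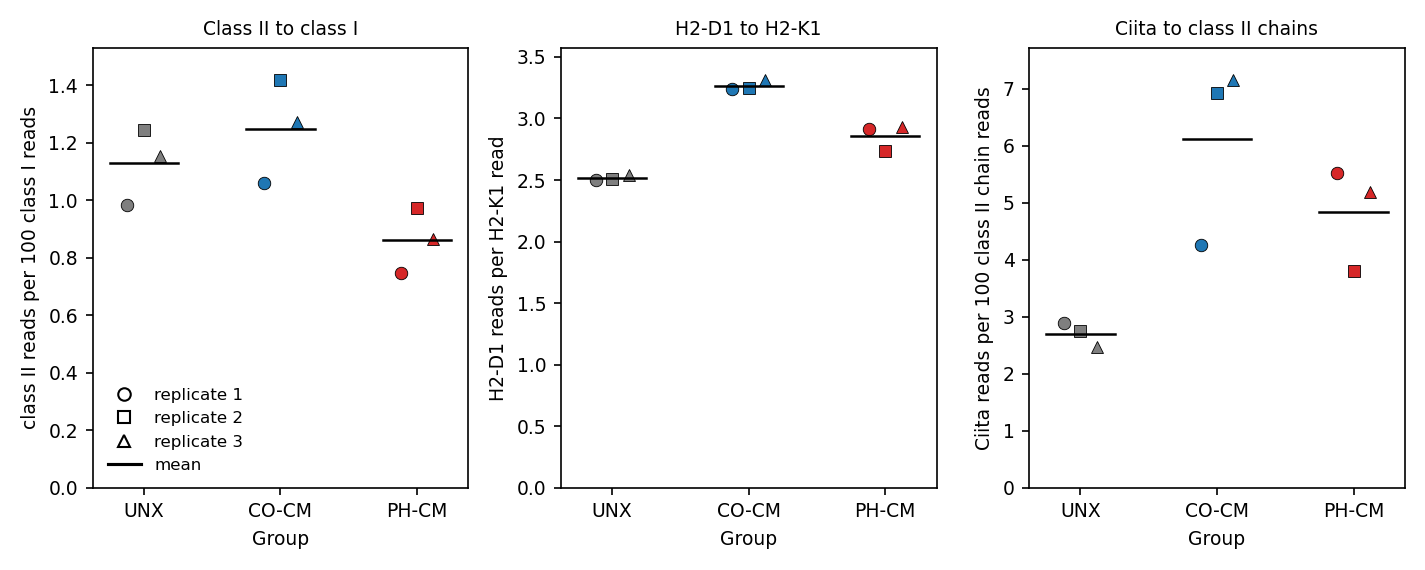
Read ratios within each library by group, with group means as bars and marker shapes for the replicate numbers: reads on Cd74 and the class II chains per 100 reads on H2-K1 and H2-D1 (left), H2-D1 reads per H2-K1 read (middle) and Ciita reads per 100 reads on the class II chains (right). PH-CM is the lowest group on the left, between 0.746 and 0.974, and the groups are separate in the middle.

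Among the 11 genes of the class II chain and peptide exchange list, 7 passed the filter. They gave 6 called higher under CO-CM (7 with the replicate block, median log2 fold change 1.13), beside 28% of all genes tested, and 2 under PH-CM (5 with the block, median 0.34), beside 31.3%. Between the media 1 was higher and 3 were lower under PH-CM (4 lower with the block, 5 without CO-CM replicate 1, median -0.59), beside 12.2% and 15%, while the medians over all genes tested were 0.00024, 0.0072 and -0.0064. H2-DMa, a chain of the peptide exchange factor, rose by 0.94 under CO-CM (edgeR FDR = 0.00074) and by 0.68 under PH-CM (FDR = 0.0053). Its partner H2-DMb1 was at 0.34 (FDR = 0.051) and 0.09 (FDR = 0.559), and it was called under CO-CM with the block (FDR = 0.00060). H2-DMb2, the second beta chain gene, was higher with PH-CM than with CO-CM. Its group means were 0.560, 1.34 and 2.32 CPM in UNX, CO-CM and PH-CM, with log2 fold changes of 1.24 (edgeR FDR = 0.0038), 2.03 (FDR = 9.9e-05) and, between the media, 0.79 (FDR = 0.042). It passed the filter only through the treated groups, with UNX at 0.339 to 0.689 CPM, so it was tested because it is high there and its calls against UNX support nothing about the list. The last call was lost when CO-CM replicate 1 or 2, or PH-CM replicate 2 or 3, was left out, and with upper-quartile scaling. H2-DMb1 and H2-DMb2 share 5.74% and 5.40% of their 150-base stretches. H2-Oa and H2-Ob, the inhibitory partner of H2-DM, had 6, 7 and 4 reads and 80, 76 and 48 reads per group. H2-Ea, listed as H2-Ea-ps, had no read in any library.

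The class II control list holds Ciita and the factors of the promoter module, the transcription factors Spi1, Irf8 and Irf4, and genes that act on the turnover of class II. Of the 13 genes tested besides Ciita, 3 were higher and 2 lower under CO-CM, 5 higher and 3 lower under PH-CM (3 higher when scaled by library size alone), and between the media 1 was lower under PH-CM (2 with the replicate block). Of all genes tested 57%, 63% and 27.1% were called in these comparisons, so the counts do not set the list apart. The RFX subunit Rfx5 was not called in any comparison (log2 fold change 0.17 under CO-CM, edgeR FDR = 0.171, and 0.20 under PH-CM, FDR = 0.0997). Rfxank, another RFX subunit, rose by 0.60 and 0.67 (FDR = 0.00064 and 0.00025). The NF-Y subunits Nfyb and Nfyc fell under both media, Nfyb by 0.79 under CO-CM (FDR = 8.8e-07) and by 0.74 under PH-CM (FDR = 9.2e-07). Irf8, a myeloid interferon regulatory factor, was the 1 gene of the list called between the media without the block: it rose by 0.71 under CO-CM (FDR = 7.6e-07) and by 0.35 under PH-CM (FDR = 0.00011), and was 0.37 lower with PH-CM than with CO-CM on the log2 scale (FDR = 0.00030). Its mean was 136 CPM in UNX, 224 in CO-CM and 173 in PH-CM. The related factor Irf4 fell by 0.83 under PH-CM (FDR = 0.0166) and was at -0.41 under CO-CM (FDR = 0.181). Spi1 (PU.1) was called under PH-CM, at a log2 fold change of 0.27 (FDR = 0.00048), and was at 0.18 under CO-CM, below the fold threshold. March1, the ubiquitin ligase that removes class II from the surface of macrophages and dendritic cells, rose most of the 13 genes tested. It rose by 2.13 under CO-CM (FDR = 4.6e-06) and by 1.85 under PH-CM (FDR = 9.5e-06), from a mean of 6.48 CPM in UNX to 28.5 and 23.5. Between the media March1 was at -0.28 (FDR = 0.261), and it was called lower under PH-CM with the block (-0.28, FDR = 0.014). These adjusted p are from the same edgeR fit.

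Of the 9 genes of the endosomal processing list, each of them tested, 8 were called higher under CO-CM (median 0.66) and 7 under PH-CM (median 0.54), beside 28% and 31.3% of all genes tested. Between the media 2 were higher and 4 lower under PH-CM (5 lower with the replicate block, the added gene being Ctsb), beside 12.2% and 15%. Ctss, the cathepsin that cuts the invariant chain in macrophages and dendritic cells, rose by 1.10 (edgeR FDR = 7.8e-06) and 1.07 (FDR = 7.4e-06), with -0.04 between the media (95% interval -0.28 to 0.20). Ctsl, a cathepsin that does so in thymic epithelium, rose by 0.75 under CO-CM and 1.88 under PH-CM and was 1.14 higher under PH-CM (FDR = 8.0e-06). The asparaginyl endopeptidase Lgmn was also higher with PH-CM than with CO-CM, by 0.34 (FDR = 0.0038). Ctsd rose by 1.18 under CO-CM and by 0.67 under PH-CM (FDR = 4.8e-06), and was 0.51 lower under PH-CM than under CO-CM (FDR = 0.00015). Ifi30, the lysosomal thiol reductase, was 0.44 lower under PH-CM than under CO-CM (FDR = 0.0112). Against UNX Ifi30 was at -0.18 under PH-CM (FDR = 0.177) and at 0.26 under CO-CM (FDR = 0.057), the latter called with the block (0.27, FDR = 0.00027). All values are edgeR log2 fold changes.

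**Figure D4:**
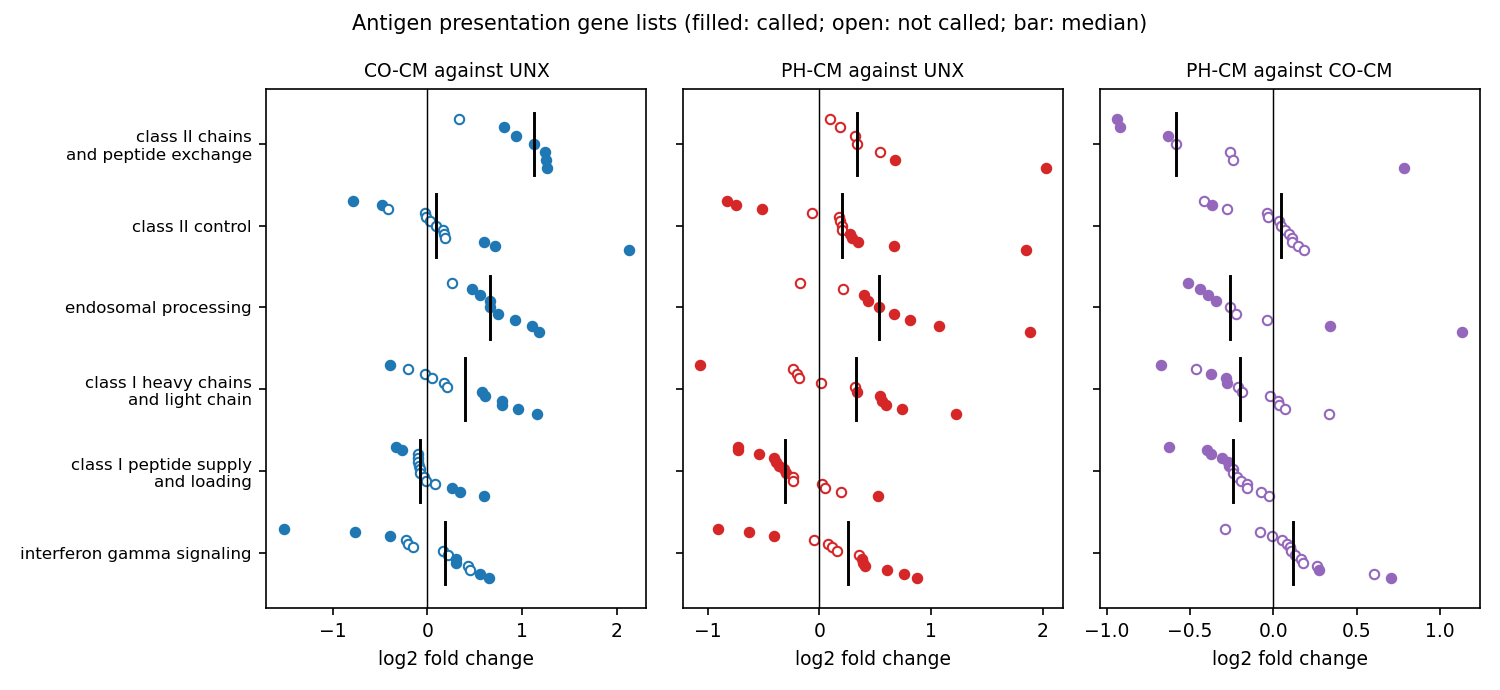
Log2 fold change of every tested gene of the 6 lists (rows) in the 3 comparisons (panels). Filled points are called, open points are not, bars are list medians, and each panel has its own scale. The median of class I peptide supply and loading lies below 0 under PH-CM (-0.31) while those of class I chains (0.33) and endosomal processing (0.54) lie above 0.

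For class I, 12 of the 18 listed heavy and light chain genes passed the filter. Under each medium 6 were called higher and 1 lower (2 lower under PH-CM without UNX replicate 1 or PH-CM replicate 2), with medians of 0.39 under CO-CM and 0.33 under PH-CM, and between the media 4 were lower under PH-CM (5 with the replicate block, 2 without CO-CM replicate 2, CO-CM replicate 3 or PH-CM replicate 1). Of all genes tested 57%, 63% and 27.1% were called in these comparisons. H2-Q6, 1 of the 6 higher under CO-CM, passed the filter only through that group, with UNX at 0.617 to 0.769 CPM and PH-CM at 0.807 to 0.9498, so its call supports nothing about the list. Cd1d1, which presents lipids, was higher with PH-CM than with CO-CM at a log2 fold change of 0.33 with the replicate block (edgeR FDR = 0.022) and not called without it (FDR = 0.058). The light chain B2m rose by 0.61 under CO-CM (edgeR FDR = 7.9e-05) and by 0.34 under PH-CM (FDR = 0.0038), and was 0.28 lower under PH-CM (FDR = 0.023). Mr1, which presents vitamin metabolites, rose by 1.16 and 1.23 (FDR = 1.8e-06 and 8.0e-07). H2-T10, a nonclassical heavy chain, was the gene that fell, by 1.07 under PH-CM (FDR = 5.2e-05) and by 0.39 under CO-CM (FDR = 0.025). The latter call was lost without CO-CM replicate 1 or 2, or UNX replicate 2 or 3, and with upper-quartile scaling. H2-T10 was 0.68 lower under PH-CM than under CO-CM on the log2 scale (FDR = 0.0039), and H2-T22 0.38 lower (FDR = 0.0058). Of their 150-base stretches, 24.1% of H2-T10 and 29.4% of H2-T22 occur in another gene, so their counts are uncertain.

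The genes that supply and load class I peptides moved apart from the heavy chains under PH-CM. Of the 14 genes, all tested, 1 was higher and 8 were lower under PH-CM (median log2 fold change -0.31), beside 31.3% and 31.7% of all genes tested. Under CO-CM, beside 28% and 28.9%, 3 were higher and 2 lower (median -0.08), the latter 0 or 1 without CO-CM replicate 1 or 2, or UNX replicate 2 or 3, and 0 with upper-quartile scaling. Between the media 6 were lower under PH-CM (median -0.24), beside 15%. The immunoproteasome subunit Psmb8 fell by 0.73 under PH-CM (edgeR FDR = 0.00021) and by 0.33 under CO-CM (FDR = 0.026). The chaperone Calr fell by 0.72 under PH-CM (FDR = 6.7e-07), was at -0.10 under CO-CM (FDR = 0.130) and was 0.63 lower under PH-CM than under CO-CM (FDR = 1.2e-05). The peptide transporter subunit Tap1 fell by 0.36 under PH-CM (FDR = 0.00047) and was at -0.10 under CO-CM (FDR = 0.211), while Tap2 rose by 0.34 under CO-CM (FDR = 0.0084). The trimming protease Erap1 fell under both media, by 0.27 under CO-CM (FDR = 0.00037). Tapbp (tapasin), which bridges the transporter and the heavy chain, was the 1 gene called higher under PH-CM, at 0.52 (FDR = 0.00034), and was at 0.60 under CO-CM (FDR = 0.00016). Nlrc5, the coactivator of class I genes, was not called in any comparison, with log2 fold changes of 0.08, 0.05 and -0.03 and means of 30.1, 31.7 and 31.1 CPM in UNX, CO-CM and PH-CM.

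The interferon gamma signaling list, whose target is Ciita in textbook macrophages, gave 4 higher and 3 lower of 14 genes under CO-CM (7 higher without CO-CM replicate 1, and 2 higher and 5 lower when scaled by library size alone), 6 higher and 3 lower under PH-CM, and 2 called higher between PH-CM and CO-CM (median 0.12). With the replicate block 5 were higher under CO-CM and 7 under PH-CM. Of all genes tested 57%, 63% and 27.1% were called, so these counts do not set the list apart. The count between the media was 1 without CO-CM replicate 2 or with upper-quartile scaling and 4 without CO-CM replicate 3. The receptor chain Ifngr1 rose by 0.87 under PH-CM (edgeR FDR = 1.6e-05), was at 0.17 under CO-CM (FDR = 0.153) and was 0.71 higher with PH-CM than with CO-CM (FDR = 0.00030). The other chain Ifngr2 rose under both media, by 0.65 and 0.76. Irf1, an interferon-inducible transcription factor, rose by 0.55 and 0.61 (FDR = 5.0e-05 and 2.0e-05). The feedback inhibitor Socs1, 1 of the 3 lower under each medium, fell by 1.52 under CO-CM and 0.91 under PH-CM. Socs1 passed the filter through UNX, so it was tested because it is high there, and its falls support nothing about the list. The interferon-inducible GTPase Ifi47 fell by 0.76 and 0.63. Irf9 was 0.28 higher with PH-CM than with CO-CM (FDR = 0.0029).

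Itgax, an integrin chain of dendritic cells that some macrophages make, moved in the same direction between the media as the class II genes. Replicates 1 to 3 were at 8.52, 33.5 and 29.1 CPM in UNX, at 19.2, 63.8 and 59.4 in CO-CM and at 5.13, 6.78 and 7.64 in PH-CM. The level thus varied strongly with the replicate number, and CO-CM replicate 1 lay below UNX replicates 2 and 3. The log2 fold change of Itgax was -2.87 for PH-CM against CO-CM (edgeR FDR = 0.0020), -1.87 for PH-CM against UNX (FDR = 0.0083) and 1.00 for CO-CM against UNX (FDR = 0.092), the latter called with the replicate block (1.01, FDR = 0.00047). The other 2 dendritic cell markers tested, Batf3 and Kit, had log2 fold changes of -2.54 and -3.17 under PH-CM (FDR = 7.1e-06 and 7.0e-06) and of -0.90 and -0.43 under CO-CM (FDR = 0.0042 and 0.155). Between the media they were at -1.63 and -2.74 with the replicate block (edgeR FDR = 0.00016 and 9.0e-06). Both passed the filter without the PH-CM libraries, which were at 0.253 to 0.451 and 0.258 to 0.317 CPM. They were thus tested because they are high elsewhere, and their falls under PH-CM support nothing about the list. Defining markers were near 0: Zbtb46 had 74, 60 and 30 reads and Clec9a 9, 33 and 7 reads in UNX, CO-CM and PH-CM. Other markers below the filter went the other way, with most reads in PH-CM: Ccr7 had 10, 24 and 54 and Xcr1 22, 14 and 34. Fewer class II positive cells and less class II RNA per cell cannot be told apart in bulk RNA, and the part of dendritic cells in the result was not tested.

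The genes whose pattern over the 9 libraries was most like that of the class II genes were Selplg (P-selectin ligand), Rab3d, Sord, Vps51 and S100a13, with Pearson r between 0.981 and 0.995 to the mean z score of H2-Aa, H2-Ab1, H2-Eb1 and Cd74. Of 11944 genes 49 had r above 0.95. Selplg ranked the 9 libraries in the same order as the class II mean, and its group means were 179 CPM in UNX, 265 in CO-CM and 198 in PH-CM. For the mean of H2-K1 and H2-D1 the most alike were Coro1b, March1, Hist2h2be, Mapk3 and Tyrobp, with r between 0.995 and 0.998, and 743 genes had r above 0.95. All genes share the libraries and their scaling, and replicate 1 was the lowest of its group for each member. Among the 6 members tested, r over the 9 libraries was between 0.731 (H2-Aa with H2-K1) and 0.985 (H2-Eb1 with Cd74). The order was another for deviations from the group means, where r was between 0.724 (H2-Aa with H2-Eb1) and 0.988 (Cd74 with H2-K1).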

How the data were processed

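RNA-Seq of 9 BMDM libraries, 3 per group, was analysed. After quality control with FastQC and trimming with AfterQC, the authors mapped reads to GRCm38 by STAR and assigned them to exons by featureCounts 1.6.2. Raw counts per gene, as whole numbers, were deposited. The stated command sets no option for strand, read pairs or multi-mapping reads, so counting was unstranded, with mates counted separately and multi-mapping reads left out. Between 81.4% and 83.8% of counts under 20 were even. The deposited RPKM values are these counts scaled by the authors to exon length and library total. Tables of the authors' own comparisons hold fold changes and p-values and were not used. Symbols were taken by Ensembl identifier (53274 of 53465 matched).

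The software was edgeR 4.0.16 and, for alternatives, DESeq2 1.42.0, both under R 4.3.3. The 11950 genes with CPM above 1 in at least 3 libraries were scaled by TMM and tested in 1 quasi-likelihood fit of all libraries. Genes were called at FDR of at most 0.05 and fold change of at least 1.2. On simulated data with 200 changed genes, 196 were recovered for PH-CM against UNX with 8 false calls, 196 for CO-CM against UNX with 13, and 197 for PH-CM against CO-CM with 6. No changed gene had a log2 fold change smaller than 1 in size. The other genes were held at the UNX mean, and no effect of the replicate number was set. Recovery of smaller changes, or with as many changed genes as in these data, was thus not measured. Libraries of the same group differed by more than counting noise (chi-square per gene at least 8.91), so none was taken for a duplicate.

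Replicate numbers come from the labels. Deviations from group means correlated with r between 0.276 and 0.484 for libraries with the same number and between -0.38 and 0.04 for the others, so pairing by number was accepted. The main fit, with its calls, SEs and intervals, does not use the number, so differences between the numbers enter its spread. A gene not called in the main fit may still differ within the numbers, as the class II chains did under PH-CM. The fit with the number as a block is an alternative, beside other tests, scalings, filters, thresholds and each library left out in turn. Neither the labels nor the paper tie a number to a repeat of the experiment. P-values measure the spread between these libraries.

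Ciita was compared by exact permutation tests. The members and lists were chosen with earlier results of these data known. Named genes are the 7 members, in each list and comparison the 2 called genes with the largest rise and the 2 with the largest fall, 16 further fixed genes of these pathways, and for each class the 5 genes with the highest Pearson r on log2 CPM (prior count 2). Marker genes come from the marker lists, and Cd1d1, Ctsb and H2-Q6 were named after their values were seen. Of the genes this rule and the marker lists name, 2 are not reported here. Coordinates come from GENCODE and promoter windows from RefSeq, both on GRCm38.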

Additional observations from a re-analysis of the deposited data

How the results depend on the processing

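Counts of called genes among the members moved with the fold threshold, the filter, the replicate block and, between the media, CO-CM replicate 1. At a fold change of at least 2 the members called were 0 for PH-CM against UNX, 3 for CO-CM against UNX and 0 for PH-CM against CO-CM, and all genes called were 2153, 1655 and 612. Without a filter, where Ciita is tested too, 4 members were called for PH-CM against UNX and 5 for PH-CM against CO-CM. With the replicate block 5 were called for PH-CM against UNX. Leaving out each library in turn gave between 2 and 3 members for PH-CM against UNX, 6 and 6 for CO-CM against UNX, and between 3 and 5 for PH-CM against CO-CM, the 5 without CO-CM replicate 1. Besides H2-Ab1, H2-Aa and H2-Eb1 against UNX and H2-Ab1 between the media, the block changed no call of a member. No member called in any setting turned its direction. H2-K1 between the media, never called, ranged from -0.07 to 0.04. Over the 17 alternatives the FDR ranged from 0.00027 to 0.296 for H2-Ab1, from 0.039 to 0.506 for H2-Aa, from 0.028 to 0.538 for H2-Eb1 and from 0.018 to 0.881 for Cd74 in PH-CM against UNX, and between the media from 0.00070 to 0.185 for H2-D1. Ciita and the class II chains have few reads, so counting error adds to the spread there. A count of 3 reads corresponds to between 0.0356 and 0.0484 CPM per library. All values are log2 fold changes or counts of the fits named.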
